A study of Mus musculus with 17 samples.

Results

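Poly(A)-selected RNA of whole testes on postnatal day 0 (P0) was compared between mice without and with Dnmt3l. The comparison used 11 of the 17 libraries in the series, 5 without Dnmt3l (2 Dnmt3L KO and 3 double knockout, DKO) and 6 with it (2 wild type, WT, and 4 Pld6 KO). The libraries were grouped by genotype alone. The comparison and the gene lists were chosen with earlier results of these data known. WT testes carried both genes, Pld6 KO testes lacked Pld6, Dnmt3L KO testes lacked Dnmt3l, and DKO testes lacked both. All animals were labelled as strain C57BL6/J, and per the study's methods both mutant lines had been backcrossed to that strain. The libraries were stranded, read as 100-bp pairs and labelled as biological replicates. The other 6 libraries, from sorted spermatocytes, were not used in this comparison. It asks which RefSeq genes differ when Dnmt3l is missing, with the Pld6 genotype held as a covariate.

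Dnmt3l encodes a catalytically inactive relative of the DNA methyltransferases, which binds Dnmt3a and Dnmt3b and is needed for de novo DNA methylation in fetal male germ cells. In these cells the marks laid down before birth cover retrotransposons and paternally imprinted regions. Pld6 encodes a mitochondrial protein needed to make PIWI-interacting RNAs (piRNAs), small RNAs that guide silencing of retrotransposons in the same cells. A newborn testis holds prospermatogonia as its germ cells, and Sertoli, Leydig, peritubular, stromal, vascular and blood cells around them, so a bulk library is mostly somatic RNA. In such a library, fewer cells of a type and less RNA per cell cannot be told apart.

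The libraries held 9900346 to 23498968 fragments, the deepest being DKO replicate 3. The labelled tissue was matched by its markers: all 16 Sertoli cell markers were tested, with sums of 4077 to 6059 counts scaled to library size (CPM), the unit used for levels below. All 16 prospermatogonia markers were detected well enough to be tested, and their summed level was 159 to 549 CPM with Dnmt3l and 283 to 593 CPM without it. Pld6 KO replicate 1 gave the lowest of these sums. Transcripts of later germ cells stood out in 1 library, Dnmt3L KO replicate 1, where Ldhc, a lactate dehydrogenase of spermatocytes and spermatids, was at 65.7 CPM against 0.84 to 2.08 CPM in the other 10. Of 15 late germ cell markers, 9 were too low to be tested, among them Prm1, Prm2, Tnp1 and Tnp2. Both Dnmt3L KO libraries also had relatively more fragments of GC-poor transcripts than the other libraries (Spearman correlation across 15759 genes between GC content and the departure from the mean level, -0.385 and -0.387). Results that rest on either library are given without it below.

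The targeted gene was examined first. Dnmt3l (chromosome 10, 78042287 to 78063622, mm10) had 53 and 72 counts in the WT libraries and 6, 135, 30 and 145 in those of Pld6 KO. In Dnmt3L KO it had 2 and 1 counts, and the DKO libraries had 1, 0 and 3. The 5 libraries without Dnmt3l were thus all below the other 6, and the lowest of the 6 was Pld6 KO replicate 1. Against 3 counts per library the level was at least 27.1-fold lower without Dnmt3l. The adjusted p was 0.138 in the edgeR quasi-likelihood test, so the targeted gene itself did not pass the threshold of 0.05. It passed in the DESeq2 Wald test (adjusted p = 6.86e-06) and in edgeR without Pld6 KO replicate 1 (0.00174). Pld6 (chromosome 11, 59783893 to 59787657) was counted 57 and 40 times in the WT libraries, 66 and 21 times in those of Dnmt3L KO, and had 0 to 2 counts in the 7 libraries labelled as lacking it. No library went against its label.

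Across the transcriptome, 0 of 15901 genes tested (0%) passed an adjusted p of 0.05 in edgeR. At an unadjusted p under 0.05 there were 1124 genes, 627 higher without Dnmt3l (3.94%) and 497 lower (3.13%). DESeq2 called 38 genes, 20 higher (0.126%) and 18 lower (0.113%), and limma on log2(FPKM + 1) called 0. The study itself reported genes changed more than 2-fold in Dnmt3l KO P0 testes, using Cuffdiff, which was not rerun here. All 5 libraries without Dnmt3l lay above all 6 others for 75 genes (0.472%) and below them for 62 (0.39%). The 75 genes were mostly weakly expressed, with a median of 2.82 CPM where Dnmt3l was present against 25.3 CPM for all genes tested, and 28 of them differed by more than 2-fold in the fitted value. The 62 genes had a median of 57.5 CPM and 2 of them differed by more than 2-fold. With any 1 library left out, 87 to 163 genes were apart in the higher direction and 75 to 154 in the lower. In what follows, "higher" and "lower" describe measured values, and a gene passed a test only where this is said.

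**Figure D1:**
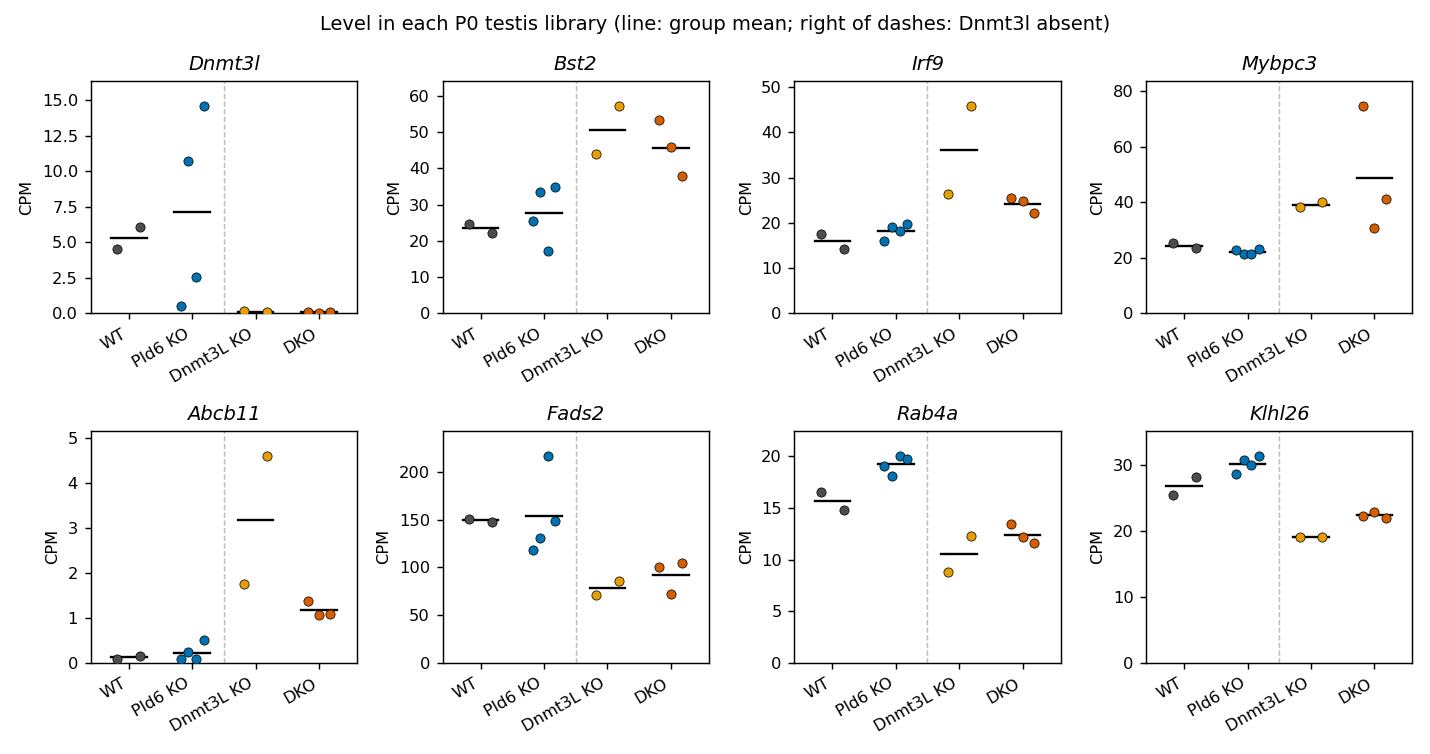
Level in scaled counts (CPM) of 8 genes in each of the 11 P0 testis libraries, by genotype, with the group mean as a line and the groups without Dnmt3l to the right of the dashed line. The 8 genes shown are all among those whose arms do not overlap, 75 higher (0.472% of genes tested) and 62 lower (0.39%). They are thus not typical of all genes. Bst2, Irf9, Mybpc3 and Abcb11 are higher without Dnmt3l and Dnmt3l, Fads2, Rab4a and Klhl26 lower.

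Most genes induced by interferon had higher values in testes without Dnmt3l, although none passed the edgeR test singly. Interferons are cytokines of the antiviral response, and their receptors signal through Stat2, which joins Irf9 to bind a response element in the promoters of target genes. Of 30 such genes, listed with earlier results of these data known, 29 were tested. Of these, 27 had a positive log2 fold change (51.1% of all genes tested did). At an unadjusted p under 0.05, 16 were higher, against 3.94% of all genes tested, and 0 were lower, against 3.13%. The arms did not overlap for 3 of the 29, all of them higher, against 0.472% of all genes tested. The list's median log2 fold change was 0.64, against 0.01 for all genes tested. In DESeq2, 2 of the 29 passed.

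The response element shows in the promoters of several of these genes. The 250 bases before the start site are printed for the member with the smallest p-value (Bst2), for 2 strongly inducible members (Isg15 and Ifit1) and for a member called by DESeq2 without a match (Oasl2). Sequences are from RefSeq GRCm38.p6, written on the gene's own strand and ending just before the start site. Capitals mark each match to GAAA repeated after a gap of 2 bases (N), searched on both strands. The Bst2 window is chr8:71537473-71537722 (minus strand), that of Isg15 chr4:156200819-156201068 (minus), that of Ifit1 chr19:34640639-34640888 (plus) and that of Oasl2 chr5:114896684-114896933 (plus).
Bst2: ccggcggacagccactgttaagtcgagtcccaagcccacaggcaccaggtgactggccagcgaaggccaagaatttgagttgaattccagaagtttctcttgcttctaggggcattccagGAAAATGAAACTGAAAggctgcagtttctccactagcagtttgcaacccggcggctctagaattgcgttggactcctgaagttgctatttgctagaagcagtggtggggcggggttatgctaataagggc
Isg15: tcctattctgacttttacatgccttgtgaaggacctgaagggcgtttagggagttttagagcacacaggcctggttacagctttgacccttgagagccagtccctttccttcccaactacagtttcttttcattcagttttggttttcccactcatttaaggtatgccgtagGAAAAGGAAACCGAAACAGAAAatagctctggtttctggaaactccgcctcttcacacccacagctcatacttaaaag
Ifit1: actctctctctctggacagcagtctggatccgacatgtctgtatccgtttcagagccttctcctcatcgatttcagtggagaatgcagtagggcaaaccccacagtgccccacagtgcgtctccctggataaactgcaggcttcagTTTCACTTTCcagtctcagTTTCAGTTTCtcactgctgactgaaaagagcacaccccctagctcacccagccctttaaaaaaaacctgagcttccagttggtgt
Oasl2: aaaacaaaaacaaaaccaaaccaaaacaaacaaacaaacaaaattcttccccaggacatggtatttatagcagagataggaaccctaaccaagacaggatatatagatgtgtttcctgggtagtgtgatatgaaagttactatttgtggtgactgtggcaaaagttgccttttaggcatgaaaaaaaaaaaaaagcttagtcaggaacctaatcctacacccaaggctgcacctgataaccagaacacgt

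Bst2 holds 2 overlapping matches, the further starting 130 bases before the start site, Isg15 holds 3 overlapping ones and Ifit1 holds 2 separate ones. Over windows of 250 bases before to 50 after the start, the motif was found for 10 of the 19 tested list members with a window (52.6%) and for 454 of 12494 tested genes with one (3.64%). This describes letters in the windows and does not show binding. Windows of the 75 genes that were higher in all 5 libraries held the motif for 6 of 63 genes (9.52%). For each gene the highest number of CG dinucleotides in any of its windows was taken. The median over these higher genes was 9, against 21 for all tested genes with a window and 21 for the 62 lower genes.

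Bst2 (chromosome 8, 71534255 to 71537472), or tetherin, a membrane protein that holds budding virus particles at the cell surface, had 24.6 and 22.2 CPM in WT and 25.4, 33.4, 17.3 and 34.9 CPM in Pld6 KO. Without Dnmt3l it had 44.1 and 57.3 CPM in Dnmt3L KO and 53.3, 45.9 and 37.9 CPM in DKO. The arms did not overlap, at 47.7 ± 7.67 CPM (SD, n = 5) against 26.3 ± 6.71 CPM (SD, n = 6). The log2 fold change was 0.86 (SE 0.18), with an adjusted p of 0.331 in edgeR and 0.0107 in DESeq2.

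Irf9 (chromosome 14, 55603985 to 55610030), the DNA-binding partner of Stat2, ranged from 14.3 to 19.8 CPM in the 6 libraries with Dnmt3l. It had 26.3 and 45.8 CPM in Dnmt3L KO and 25.5, 24.9 and 22.1 CPM in DKO. The arms did not overlap, and the log2 fold change was 0.69 (SE 0.18, edgeR adjusted p = 0.475). Stat2 itself had a log2 fold change of -0.03 (SE 0.13).

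Oasl2 (chromosome 5, 114896926 to 114912245), a member of the oligoadenylate synthetase family, had 12.7 and 6.13 CPM in WT and 9.41, 12.2, 14.0 and 18.5 CPM in Pld6 KO. It had 16.4 and 55.3 CPM in Dnmt3L KO and 32.9, 20.9 and 21.8 CPM in DKO. Only Dnmt3L KO replicate 1 lay within the range of the other arm. Its log2 fold change was 1.27 (SE 0.32), with an adjusted p of 0.475 in edgeR and 0.0362 in DESeq2. Its relatives Oas2 and Oas1a had log2 fold changes of 1.49 (SE 0.55) and 1.31 (SE 0.61), and Oas3 and Oasl1 of 0.45 (SE 0.56) and 0.17 (SE 0.42).

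Among the remaining members, Ifi44 was at 0.504 to 1.71 CPM with Dnmt3l and at 1.23 to 5.90 CPM without it, a log2 fold change of 1.73 (SE 0.45). Isg15, a ubiquitin-like modifier, was at 0.168 to 0.805 CPM with Dnmt3l and at 0.796 to 2.03 CPM without it (log2 fold change 1.40, SE 0.43), and the arms met only at their edges. Ifit1, which binds foreign RNA, was at 0.084 to 1.31 CPM and 0.629 to 2.78 CPM (1.55, SE 0.57). These 3 genes rest on few fragments, 1 to 20 counts per library with Dnmt3l. The sensors of double-stranded RNA were less uniform: Ifih1 and Dhx58 had log2 fold changes of 0.64 (SE 0.23) and 0.75 (SE 0.31), and Ddx58 of 0.29 (SE 0.21). Parp9, an ADP-ribosyltransferase of the interferon response, was at 15.1 to 17.9 CPM with Dnmt3l and at 20.2 to 32.7 CPM without it, and these ranges did not overlap. Ifi27 overlaps Ifi27l2a on chromosome 12, so fragments of these 2 genes may be shared between them. Ifi27l2a had 1.03 to 7.95 CPM with Dnmt3l and 5.52 to 18.0 CPM without it (log2 fold change 1.89, SE 0.45, called by DESeq2 at an adjusted p of 0.0187). Ifit2 and Stat2 were the 2 members with a negative value, -0.05 (SE 0.15) and -0.03.

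The interferon values were largest in 1 library. Dnmt3L KO replicate 2 gave the highest level of the 11 libraries for 19 of the 29 genes, and DKO replicate 1 for 5. Summed over the list, the level was 281 to 370 CPM in the 6 libraries with Dnmt3l, 409 and 654 CPM in Dnmt3L KO and 492, 394 and 386 CPM in DKO, so that the sums did not overlap. Without Dnmt3L KO replicate 2 the list's median log2 fold change was 0.39 and 8 members had an unadjusted p under 0.05. Without Dnmt3L KO replicate 1 these values were 0.72 and 19. When GC content and transcript length were modelled as an offset, they were 0.53 and 17. Of all genes tested, 437, 622 and 482 were higher at that threshold under these settings, in the order given.

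The 2 Pld6 backgrounds share no library, and each gave its own estimate. Where Pld6 was present (Dnmt3L KO against WT), all 29 interferon genes had a positive value, the median was 1.07 and 17 were higher at an unadjusted p under 0.05, against 6.24% of all genes. Where Pld6 was absent (DKO against Pld6 KO), 26 of the 29 were positive and the median was 0.41. In that background 7 members (Isg15, Oasl2, Dhx58, Bst2, Ifi44, Trim25 and Parp9) were higher at an unadjusted p under 0.05, against 3.47% of all genes. Bst2 had log2 fold changes of 1.11 and 0.72 in the 2 backgrounds, Oasl2 of 1.93 and 0.89, and Ifit1 of 3.12 and 0.79. No interferon gene differed between the backgrounds at an adjusted p of 0.05 in edgeR, which does not show that the 2 effects are alike.

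**Figure D2:**
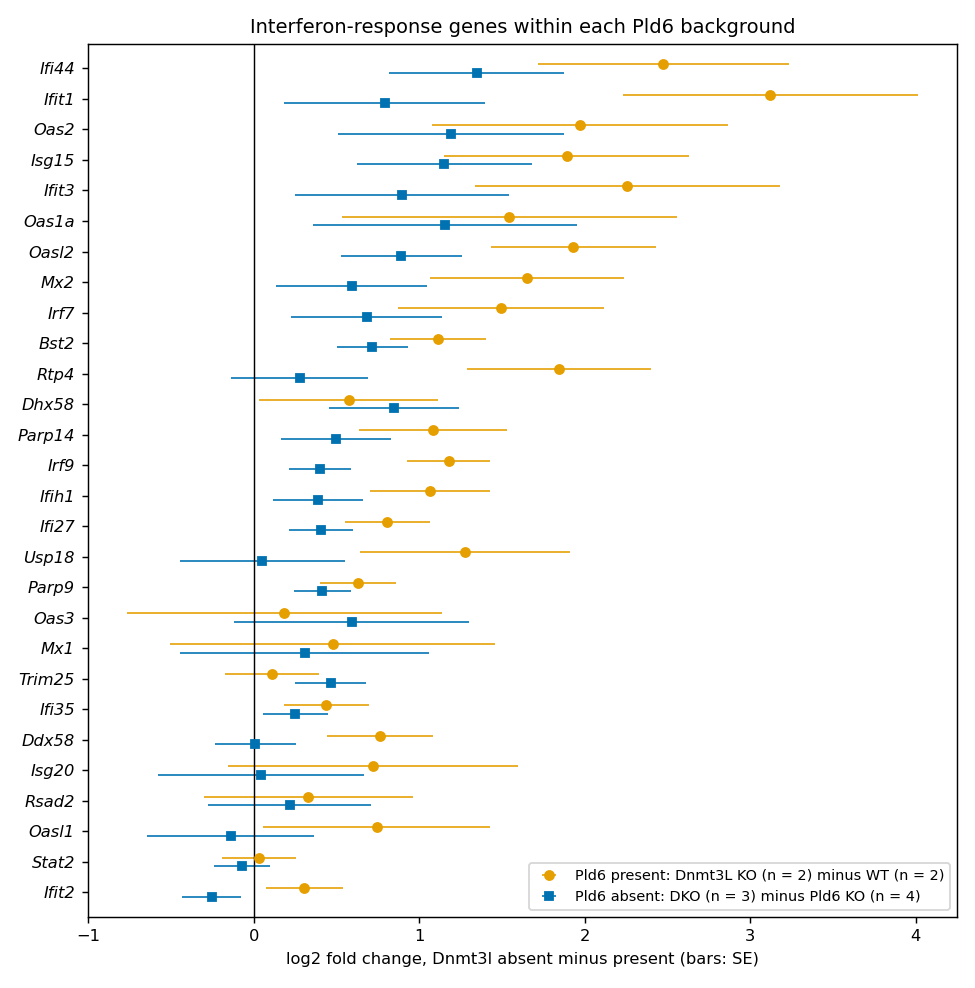
Log2 fold change of 28 of the 29 tested interferon-response genes for loss of Dnmt3l (absent minus present) where Pld6 was present (circles, Dnmt3L KO against WT) and where it was absent (squares, DKO against Pld6 KO), with standard errors as bars. All 28 circles and 25 of the 28 squares lie above 0, and the squares lie closer to 0 than the circles for most genes.

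Markers of immune cells and of the organ's surface were read beside this list. All 10 tested macrophage markers had a positive log2 fold change (median 0.26), with sums of 131 to 181 CPM with Dnmt3l and 136 to 233 CPM without it. Only Ms4a7 among them had an unadjusted p under 0.05 (3.94% of all genes tested were higher at that threshold). Blood markers had sums of 304 to 1161 CPM and 247 to 851 CPM, and Ptprc, the pan-leukocyte protein CD45, was at 3.08 to 6.44 CPM and 4.37 to 10.6 CPM. Dnmt3L KO replicate 2 had the highest Ptprc level of the 11 libraries. Mesothelial markers, of the covering of the organ, had a median of 0.78 over 6 genes and sums of 26.8 to 227 CPM with Dnmt3l and 35.4 to 191 CPM without it. The mesothelial median was 1.26 without Pld6 KO replicate 4 and 0.42 without Dnmt3L KO replicate 2. The sums of these lists overlapped between the arms, and the part of any of these cell types in the interferon values was not tested.

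**Figure D3:**
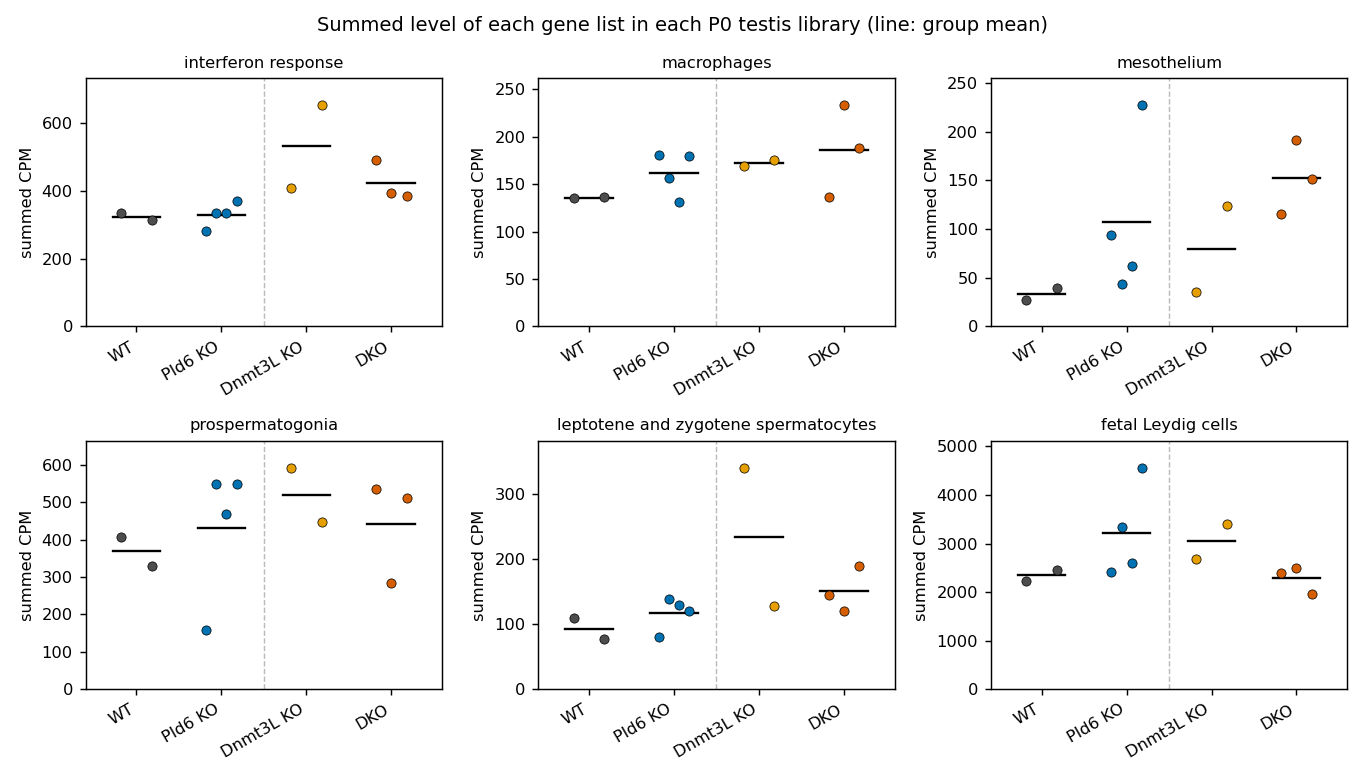
Summed level in scaled counts (CPM) of 6 gene lists in each of the 11 P0 testis libraries, by genotype, with the group mean as a line and the groups without Dnmt3l to the right of the dashed line. The interferon sums of the 5 libraries without Dnmt3l (386 to 654) lie above those of the other 6 (281 to 370), whereas the sums of the other 5 lists overlap between the arms.

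Genes that were higher without Dnmt3l and had a mean of at least 50 counts there were ranked by p-value. The first 12 included Bst2 of the interferon list and genes of several other roles. No such count was required with Dnmt3l, where Gda had 19 to 27 counts per library and Adtrp 2 to 26. Mybpc3, a myosin-binding protein best known from heart muscle, had 25.2 and 23.6 CPM in WT and 21.2 to 23.0 CPM in Pld6 KO, and 38.4 and 40.0 CPM in Dnmt3L KO and 74.7, 30.6 and 41.2 CPM in DKO. The arms did not overlap (1.97-fold higher, edgeR adjusted p = 0.307, DESeq2 0.00515). Fgfbp3, a carrier of fibroblast growth factors, was at 2.06 to 4.93 CPM with Dnmt3l and 6.71 to 14.7 CPM without it. Gda, or guanine deaminase, was at 1.57 to 2.62 CPM and 2.93 to 5.99 CPM, again with no overlap. Adtrp was at 0.168 to 2.07 CPM and 2.81 to 5.29 CPM, and Cpne8 at 12.8 to 27.9 CPM and 22.4 to 42.5 CPM.

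Of the 12, 2 belong to immune cells or antigen presentation. Cxcr2, the neutrophil receptor for CXC chemokines, was at 3.44 to 5.72 CPM with Dnmt3l and at 6.61 to 19 CPM without it, with no overlap. H2-D1, a class I histocompatibility antigen from a family of similar genes among which fragments can be split, was at 14.0 to 21.5 CPM and 18.9 to 42.7 CPM. Genes of the same cells, chosen after their values were seen, gave 5.39 to 20.4 CPM and 10.4 to 66.8 CPM for S100a8 and 3.00 to 6.77 CPM and 7.35 to 9.98 CPM for Itgam. Irgm1, an interferon-inducible GTPase named on the same basis, was at 6.21 to 11.7 CPM and 11.8 to 22.0 CPM, with the arms just apart. Beside Bst2, the others of the 12 were Ifi27l2a, Omd, Gm16702 and G530011O06Rik.

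A group of weakly expressed genes gave larger differences, and these were also chosen after their values were seen. Abcb11, the bile salt export pump of hepatocytes, had 1, 2, 1, 3, 1 and 5 counts in the 6 libraries with Dnmt3l and 20, 53, 13, 14 and 26 counts in the 5 without it. No fold is given, since 5 of the 6 libraries with Dnmt3l had 3 counts or fewer (adjusted p = 0.172 in edgeR and 0.00278 in DESeq2). Prss45, a serine protease, had at most 3 counts in each library with Dnmt3l and 29, 16, 7, 7 and 36 counts without it. Against 3 counts per library it was at least 5.19-fold higher. Mug-ps1, a pseudogene of the murinoglobulin family whose fragments may be shared with its relatives, had 8 to 13 counts with Dnmt3l and 42 to 54 without it (4.32-fold, DESeq2 adjusted p = 0.000198). Tmem221 was at 0.168 to 1.11 CPM and 2.26 to 4.08 CPM. None of these 4 genes overlapped between the arms.

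Genes that were lower without Dnmt3l were better counted and differed by less. Fads2, a fatty acid desaturase, had 151 and 148 CPM in WT and 118, 130, 217 and 148 CPM in Pld6 KO, and 71.5 and 86.0 CPM in Dnmt3L KO and 100.02, 72.5 and 104 CPM in DKO. All 5 libraries without Dnmt3l were below the other 6 (log2 fold change -0.80, SE 0.16, adjusted p = 0.307 in edgeR and 0.00515 in DESeq2). Rab4a, a GTPase of endosome recycling, was at 14.8 to 20.0 CPM with Dnmt3l and 8.77 to 13.4 CPM without it. Klhl26 was at 25.5 to 31.5 CPM and 19.09 to 23.0 CPM, and Nrm, or nurim, a protein of the nuclear envelope, at 30.2 to 39.3 CPM and 22.7 to 28.1 CPM. These differences of 1.38-fold for Klhl26 and 1.37-fold for Nrm were small, but the arms did not overlap. Chst8 and Serpinf1 also did not overlap, while Alas1, the first enzyme of heme synthesis, Gfra2, a receptor for neurturin, Plin1, a coat protein of lipid droplets, and Chst11 did. The 2 remaining genes of the 12 were 1190007I07Rik, with no overlap, and 1810055G02Rik.

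Germ cell transcripts were followed by stage. In prospermatogonia, 11 of 16 markers had a positive value (median 0.19). Only Nanos2 had an unadjusted p under 0.05, and it was higher (3.94% of all genes tested were). The median was -0.0060 without Pld6 KO replicate 1 and 0.39 without DKO replicate 2, and it was 0.49 where Pld6 was present and 0.02 where it was absent. Nanos2, an RNA-binding protein that keeps male germ cells out of meiosis, had 0 to 3 counts in all 6 libraries with Dnmt3l, 3 and 0 counts in Dnmt3L KO, and 17, 11 and 66 counts in DKO. The high values were thus those of the DKO alone, and Dnmt3L KO lay within the range of the other arm. Its log2 fold change was 1.44 where Pld6 was present and 3.33 where it was absent, and DESeq2 called it (adjusted p = 0.0354). The difference between the backgrounds was not called in edgeR (adjusted p = 0.753). Piwil2, a core piRNA protein, was at 12.2 CPM in Pld6 KO replicate 1, 27.5 CPM in DKO replicate 2 and 44.9 to 90.4 CPM elsewhere.

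Meiotic genes were higher in 1 library above all. All 13 tested markers of leptotene and zygotene spermatocytes had a positive value (median 0.66). Sycp1, Sycp2, Smc1b and Hormad1 had an unadjusted p under 0.05 (3.94% of all genes tested were higher at that threshold). With the offset for GC content and length the median was 0.46. With it 2 members were higher at that threshold, against 482 of all genes tested. Sycp1, which forms the central part of the synaptonemal complex, was at 52.6 CPM in Dnmt3L KO replicate 1 and at 9.57 to 31.4 CPM in the other 10 libraries. Hormad1, which binds unsynapsed chromosome axes, was at 41.2 CPM in that library and 6.94 to 23.4 CPM elsewhere. Without Dnmt3L KO replicate 1 the list's median was 0.22, with 1 member at an unadjusted p under 0.05. Without Dnmt3L KO replicate 2 it was 0.74, with 7 members. Of all genes tested, 622 were higher at that threshold without replicate 1 and 437 without replicate 2. Where Pld6 was present the median was 1.57, with 9 members higher at that threshold, against 6.24% of all genes. Where it was absent the median was 0.23, with 0 members higher, against 3.47% of all genes. Smc1b, a cohesin subunit of meiosis, was an exception to this pattern, with 51.7 CPM in DKO replicate 3 against 41.6 CPM in Dnmt3L KO replicate 1.

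A wider list of germline genes, known to be silenced in somatic cells by methylation of their promoters, followed the same libraries. Of 45 tested, 42 had a positive value (median 0.38). At an unadjusted p under 0.05, 4 were higher, namely Sycp1, Hormad1, Smc1b and Rhox5, against 3.94% of all genes tested. The first 3 are also in the spermatocyte list. With the offset for GC content and length the median was 0.28. With it 3 members were higher at that threshold, against 482 of all genes tested. Without Dnmt3L KO replicate 1 the median was 0.17 with 2 members at that threshold, against 622 of all genes tested. Without Dnmt3L KO replicate 2 it was 0.43 with 12 members, against 437 of all genes tested. In the presence of Pld6 10 members were higher at that threshold (median 0.62), against 6.24% of all genes. In its absence 2 were (median 0.17), against 3.47% of all genes. Rhox5, an X-linked homeobox gene, was at 1.24 to 3.42 CPM with Dnmt3l, at 4.998 and 1.91 CPM in Dnmt3L KO and at 4.05, 6.75 and 8.30 CPM in DKO. The 30 piRNA pathway genes had a median of 0.18, with 25 positive and 0 at an unadjusted p under 0.05.

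**Figure D4:**
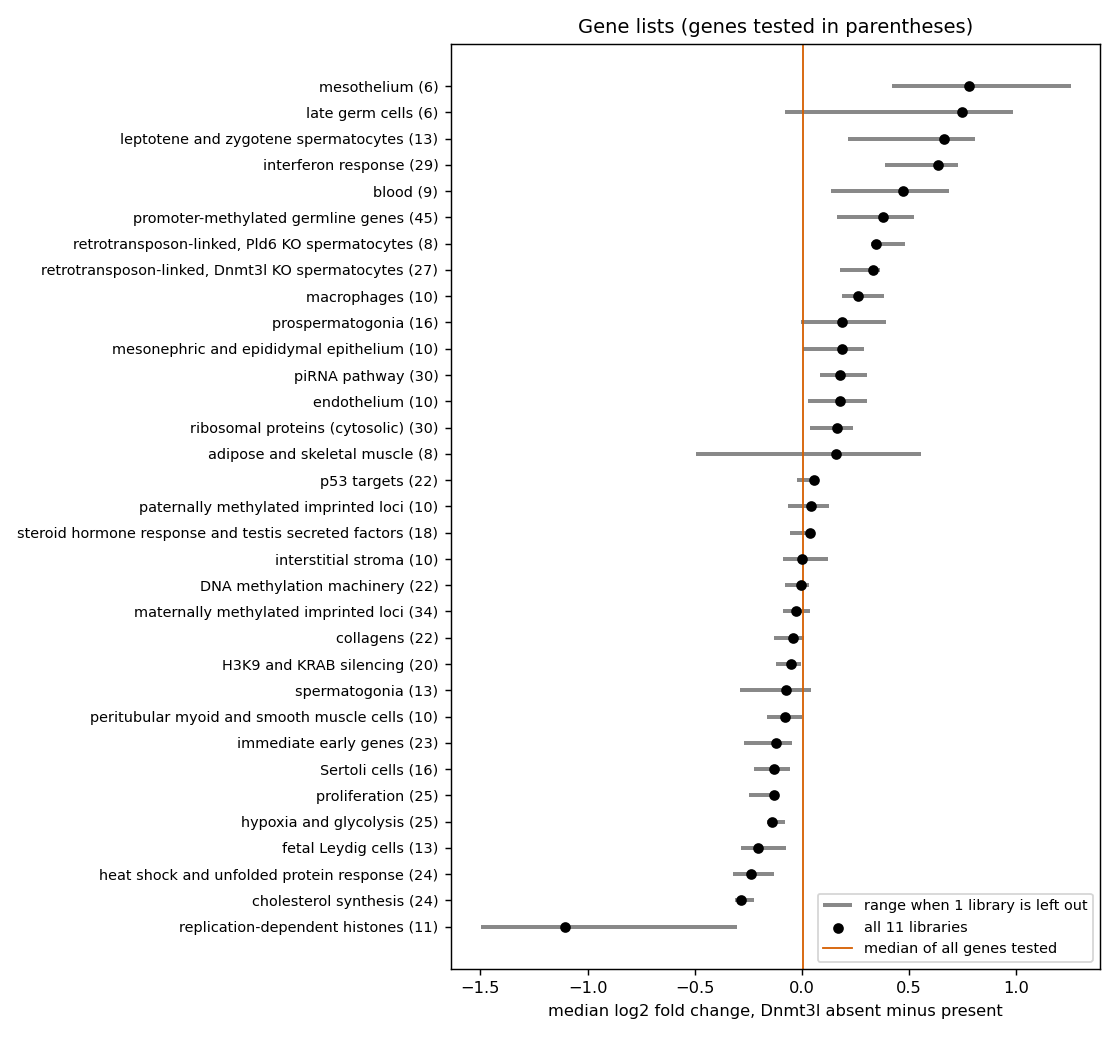
Median log2 fold change for loss of Dnmt3l (absent minus present) of 33 gene lists, with the number of genes tested in parentheses, as points over all 11 libraries and as bars for the range when 1 library is left out. The vertical line is the median of all genes tested (0.01). The interferon median (0.64) stays above 0.38 in every case, as does that of mesothelium (0.78, lowest 0.42), whereas that of late germ cells (0.75) reaches -0.08.

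The DNA methylation machinery and imprinted genes gave few differences. Of 22 tested genes of the methylation machinery, 3 had an unadjusted p under 0.05, and all 3 were lower (3.13% of all genes tested were). Beside Dnmt3l itself these were Uhrf1, which recruits the maintenance methyltransferase to replicating DNA (84.4 to 136 CPM without Dnmt3l, 103 to 186 CPM with it), and Dnmt1, that methyltransferase (165 to 282 CPM and 208 to 366 CPM). Dnmt3a and Dnmt3b, the partners of Dnmt3l, had log2 fold changes of 0.00 (SE 0.14) and -0.11 (SE 0.17). Of 10 genes at paternally methylated imprinted loci, only Zdbf2 was higher at an unadjusted p under 0.05 (3.94% of all genes tested were). Zdbf2 had 56.1 and 64.2 CPM in Dnmt3L KO, 94.0 to 96.0 CPM in DKO and 53.1 to 72.9 CPM with Dnmt3l. Its 3 DKO values lay above all others, while those of Dnmt3L KO did not. At maternally methylated loci 4 of 34 genes were lower at that threshold, against 3.13% of all genes tested, namely Snrpn, Magel2, Plagl1 and Nnat.

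The study had named genes next to a retrotransposon in mutant spermatocytes, and these were read in newborn testes. In P0 testes of either mutant the study reported no transcripts joining a retrotransposon to a gene. Such transcripts were not looked for here. The lists were chosen by the study on spermatocyte libraries, which are not among the 11 compared here. Of 27 tested genes from the Dnmt3l KO list, 22 had a positive value (51.1% of all genes tested did). The list's median was 0.33, and it was 0.18 without Dnmt3L KO replicate 2. At an unadjusted p under 0.05, 6 were higher, against 3.94% of all genes tested, and 1, Slc15a2, was lower, against 3.13%. The leading member was Apoh, which encodes a plasma glycoprotein made by liver. Apoh had 0 counts in both WT libraries and 5, 6, 2 and 6 in Pld6 KO, against 9 and 21 in Dnmt3L KO libraries and 10, 27 and 51 in those of DKO. The arms were narrowly apart, at most 0.604 CPM with Dnmt3l and at least 0.789 CPM without it. DESeq2 called the gene (adjusted p = 0.00545). No fold is given, since every library with Dnmt3l had 6 counts or fewer. Cdh19, a cadherin, had at most 3 counts with Dnmt3l, 5 and 0 in Dnmt3L KO libraries and 2, 17 and 33 in those of DKO. Pamr1, which is on both lists, was at 4.16 to 29.6 CPM with Dnmt3l and 12.7 to 27.0 CPM without it. Of the 8 tested genes of the Pld6 KO list, 7 were positive (median 0.35) and 2, Pamr1 and Caps2, were higher at an unadjusted p under 0.05. Apart from Cd300c and Tmc2, every gene of this list is also on the Dnmt3l KO list, so it is not a separate result.

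Among markers of Leydig and Sertoli cells, those at an unadjusted p under 0.05 were all lower (3.13% of all genes tested were lower at that threshold). Cyp17a1, the Leydig cell enzyme that makes androgen precursors, had 94.5 to 682 CPM with Dnmt3l, 118 and 152 CPM in Dnmt3L KO, and 194, 53 and 36.0 CPM in DKO. Star, which brings cholesterol into mitochondria for steroid synthesis, was at 78.3 to 253 CPM with Dnmt3l and 55.8 to 140 CPM without it. These 2 and Nr5a1, a transcription factor of steroid-producing and Sertoli cells, were the 3 of 13 Leydig markers at an unadjusted p under 0.05. Yet Hsd3b1 and Insl3 in the same cells had values of 0.17 (SE 0.23) and -0.05 (SE 0.34), so the list did not move as 1. The Leydig median was 0.19 where Pld6 was present, with 9 of 13 positive, and -0.41 where it was absent, with 1 positive. Of 16 Sertoli markers, Inha, the alpha subunit of inhibin, was at 829 to 1190 CPM with Dnmt3l and 526 to 835 CPM without it. Amh and Sox9 in these cells had log2 fold changes of 0.05 (SE 0.29) and -0.26 (SE 0.27). The Sertoli median was -0.41 where Pld6 was present and 0.05 where it was absent. The difference between the backgrounds was not tested for these lists.

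Some metabolic and stress lists leaned the other way from the interferon list. Of 24 cholesterol synthesis genes, 23 had a negative value (median -0.28), and 3 of them, Mvk, Nsdhl and Hsd17b7, were lower at an unadjusted p under 0.05. With the offset for GC content and length 10 were lower at that threshold. Over all genes tested, 497 (3.13%) were lower at that threshold, and the same offset raised this count to 868. The cholesterol median was -0.12 where Pld6 was present, with 8 genes positive, and -0.29 where it was absent, with 1 positive. Among heat shock and unfolded protein genes 20 of 24 were negative (median -0.24). At an unadjusted p under 0.05, 4 were lower, and 7 were with the offset. Calr, a chaperone of the endoplasmic reticulum, led them with 570 to 1279 CPM with Dnmt3l and 469 to 878 CPM without it. For glycolysis and hypoxia genes 15 of 25 were negative (median -0.14), and Gapdh was at 869 to 1326 CPM and 484 to 979 CPM. For proliferation genes 20 of 25 were negative (median -0.13), but the median was 0.06 where Pld6 was present and -0.24 where it was absent. In the immediate early list 15 of 23 genes were negative (median -0.12). Its median was -0.33 where Pld6 was present, with 1 positive, but 0.11 where it was absent, with 13 positive. Myc was the 1 member lower at an unadjusted p under 0.05. It was at 27.1 to 40.3 CPM with Dnmt3l and 20.1 to 25.8 CPM without it, with no overlap. No gene of these lists passed in edgeR or DESeq2.

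Across all genes the 2 backgrounds gave little in common. With no library shared, the log2 fold changes for loss of Dnmt3l in the presence and in the absence of Pld6 had a Pearson correlation of 0.04 and a Spearman correlation of -0.04 across 15901 genes, which are not independent replicates. In both backgrounds 0 genes passed in edgeR, with 2056 and 957 at an unadjusted p under 0.05, and DESeq2 called 116 and 9. The 2056 became 1172 with the offset for GC content and length, 970 without WT replicate 1 and 2357 without Pld6 KO replicate 1, and the 957 became 624 without DKO replicate 3. Without Dnmt3L KO replicate 2, the fit where Pld6 was present rested on a lone Dnmt3L KO library, which was taken to vary like the other groups. That library was replicate 1, where transcripts of later germ cells stood out, so calls from that fit are not given. The difference between the backgrounds was tested as an interaction, which called 0 genes in edgeR (1740 at an unadjusted p under 0.05) and 54 in DESeq2. The 1740 became 835 with the same offset, 840 without WT replicate 1, 1083 without Dnmt3L KO replicate 1 and 2522 without Pld6 KO replicate 3. The interaction called 16 in edgeR without Pld6 KO replicate 3, Pdzd2, Kmt2d and Zbtb20 among them. Over all libraries these 3 had the smallest p-values. Kmt2d, a histone H3 lysine 4 methyltransferase, was at 144 and 135 CPM in Dnmt3L KO against 313 and 268 CPM in WT, and at 353, 441 and 369 CPM in DKO against 192 to 336 CPM in Pld6 KO. Zbtb20, a zinc finger repressor, was at 3.07 and 3.64 CPM in Dnmt3L KO and at 14.0 to 16.7 CPM in DKO, below and above every library with Dnmt3l.

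GC content moved with the effect in 1 background. Where Pld6 was present, the median log2 fold change went from 0.29 in the GC-poorest of 10 equal groups of transcripts to -0.27 in the GC-richest, with a Spearman correlation of -0.383 across 15759 genes. Where Pld6 was absent, the corresponding medians were 0.01 and 0.04 and the correlation 0.01. With both backgrounds and Pld6 as a covariate the correlation was -0.280. The 75 genes higher in all 5 libraries had a median GC content of 45.9%, the 62 lower genes one of 53.9% and all genes tested one of 49.7%. An offset for GC content and length left 0 genes called in edgeR, with 1350 at an unadjusted p under 0.05. With the offset the log2 fold changes of single genes fell or rose. Sycp1 went from 0.90 to 0.68, Zdbf2 from 0.31 to 0.15, Bst2 from 0.86 to 0.79 and Mybpc3 from 0.97 to 1.01. No test was run of the part of GC content in these values.

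**Figure D5:**
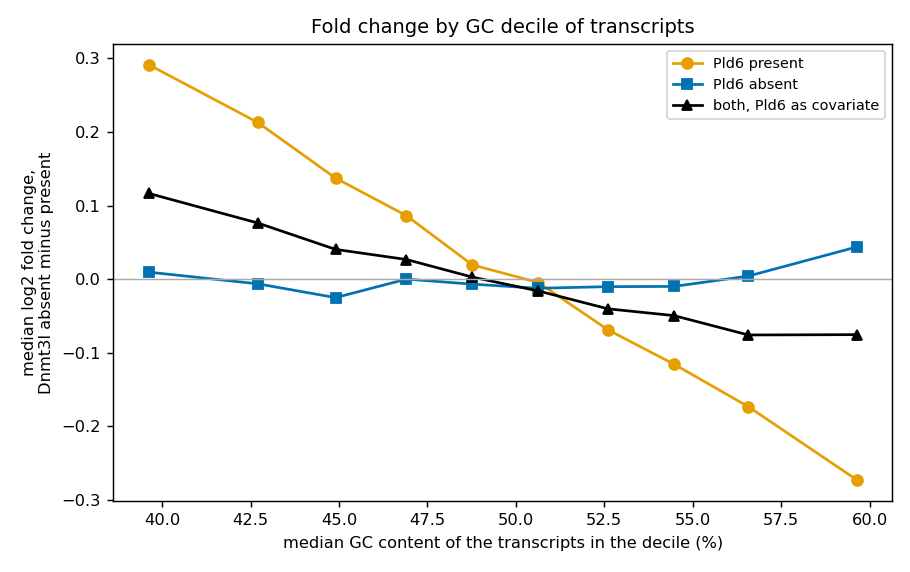
Median log2 fold change for loss of Dnmt3l (absent minus present) in 10 equal groups of genes ordered by the GC content of their transcripts, plotted at each group's median GC content in percent. Where Pld6 was present the medians run from 0.29 down to -0.27, and where it was absent they lie between -0.02 and 0.04.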

How the data were processed

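Poly(A) RNA of 11 P0 whole-testis libraries was analysed (2 WT, 4 Pld6 KO, 2 Dnmt3L KO, 3 DKO). Per the labels and the study's methods, the authors aligned reads with TopHat to mm10 and quantified RefSeq genes with Cuffdiff (versions not given in the sources used here). The authors' table holds, per gene and library, the estimated count of fragments that Cuffdiff assigned, and 97.7% of values were whole within 1e-06. The authors' table also gives FPKM, which Cuffdiff scaled to length and library size. Cuffdiff splits fragments between similar transcripts, so near-identical genes are uncertain. Of 23980 genes, 2 with a status other than OK were left out. The table numbers replicates from 0 and the labels from 1. Replicate 0 was read as replicate 1 and so on, and no group depends on this.

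Rounded counts were tested in edgeR 4.0.16 under R 4.3.3 (filterByExpr, TMM, quasi-likelihood F-test) on Dnmt3l with Pld6 as a covariate, and within each Pld6 background and for their difference in a fit of all 4 groups. An adjusted p (Benjamini-Hochberg over all genes) under 0.05 was called. P-values measure the spread between libraries labelled biological replicates. CPM are TMM-scaled counts. A fold against libraries at 3 counts or fewer was computed against 3 counts. Alternatives were DESeq2 1.42.0 (Wald test, size factors), limma 3.58.1 on log2(FPKM + 1) and log2(FPKM + 0.1), robust fitting, other filters on low counts, no covariate, the mean of both backgrounds, a fold change over 2, the replicate number as a block, leaving out each library and, added after seeing the data, GC content and transcript length as a per-library offset (loess, span 0.3), counts at an unadjusted p and other scalings of the arms' overlap. The 4 comparisons were tested on simulated data in edgeR, DESeq2 and limma without the block, the offset or a library left out. Each tool recovered the fold changes put in, which were the same in both backgrounds. No difference between backgrounds was put in, so the recovery of one was not tested. On the simulated data DESeq2 made more false calls for loss of Dnmt3l than its threshold allows, and more than edgeR or limma. Genes called by DESeq2 alone are thus less certain.

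The comparison and the gene lists were chosen with earlier results of these data known. Named genes were Dnmt3l, Pld6, the 12 genes in each direction with the smallest p among those with a mean of at least 50 counts in the higher arm, up to 2 members of each list with the smallest p, the members of the interferon list except 1 that is counted in the list but not reported here, and 3 genes for the difference between backgrounds. Other names were chosen after their values were seen. Positions are from RefSeq GRCm38.p6, which matched 15831 of 15901 genes tested. Of the 15901, 99.1% had a GC value.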

Additional observations from a re-analysis of the deposited data

Results flagged for a closer look

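Dixon's test for a sample far from the rest of its group was run on the 26 targeted and most significant genes and on the sums of the 33 lists, in the 5 libraries without Dnmt3l, the 6 with it and, for genes, the 4 Pld6 KO libraries. By chance about 1 in 20 groups is expected to stand out, and 9 of 144 did. Among single genes, Mybpc3 in DKO replicate 1 (74.7 CPM), Fgfbp3 in Dnmt3L KO replicate 2 (14.7 CPM) and Cxcr2 in DKO replicate 2 (19 CPM) were far above the other 4 libraries without Dnmt3l. Omd in Pld6 KO replicate 1 (16.8 CPM) stood above the other 3 of its genotype, and Fads2 in Pld6 KO replicate 3 (217 CPM) above the other 5 libraries with Dnmt3l. Among lists, late germ cell markers summed to 230 CPM in Dnmt3L KO replicate 1 and immediate early genes to 1620 CPM in DKO replicate 1, both far above the rest of their arm. Mesothelial markers summed to 227 CPM in Pld6 KO replicate 4, far above the other libraries with Dnmt3l, and genes of H3K9 and KRAB silencing to 1991 CPM there, below them.

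Rn45s, the gene of the ribosomal RNA precursor, was left out of all tests, because its status was not OK in the 4 Pld6 KO libraries, where it is listed at 0. It took 0.114% and 0.104% of fragments in WT. In the 5 libraries without Dnmt3l it took more. The Dnmt3L KO libraries had 0.656% and 0.2501%, and those of DKO 4.43%, 0.981% and 0.318%.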

How the results depend on the processing

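No gene passed for loss of Dnmt3l under the settings run, with 3 exceptions: 38 genes with the DESeq2 Wald test, and 1 gene, Dnmt3l, with no filter on low counts or without Pld6 KO replicate 1, so that leaving out 1 library gave 0 to 1. Where Pld6 was present DESeq2 called 116 genes and limma on log2(FPKM + 0.1) 1, and leaving out 1 library gave 0 to 56 (2 without either WT library, 56 without Dnmt3L KO replicate 2). Where Pld6 was absent DESeq2 called 9, and leaving out 1 library gave 0 to 2. The difference between backgrounds gave 54 with DESeq2 and 0 to 16 with 1 library left out. The cause of these differences was not tested, except that fits with 1 library left out in a group of 2 rest on a lone library. Genes whose arms were apart numbered 87 to 163 (higher) and 75 to 154 (lower) with 1 library left out, since fewer libraries have to be apart, and 101 were lower in FPKM. Interferon genes higher at an unadjusted p under 0.05 numbered 8 to 19, the fewest without Dnmt3L KO replicate 2. Of all genes tested, 371 to 953 were higher at that threshold with 1 library left out.

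The replicate number as a block gave 0 calls in each comparison. Same-numbered libraries deviated from their group means with correlations of -0.33 to 0.27, so the numbers did not pair the libraries. Of the named genes, 8 changed sign under a setting, mostly with values near 0. Pld6 was at 0.0335 without the covariate and Ifit2 at 0.018 with the replicate block. With 1 library left out, log2 fold changes ran from -0.17 to 0.021 for Ifit2, -0.027 to 0.60 for Isg20, -0.15 to 0.038 for Stat2, -0.0839 to 0.44 for Oasl1, -0.019 to 0.59 for Mx1, -0.013 to 0.41 for Piwil2 and, for Ldhc, from -0.16 without Dnmt3L KO replicate 1 to 2.19. Of the 33 list medians, 5 moved by more than the spread between libraries of a genotype under some setting, that of late germ cells to -0.08 without Dnmt3L KO replicate 1. Depth limits weakly expressed genes, since 3 counts were 0.126 to 0.32 CPM per library.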

Other observations

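Replication-dependent histones, whose main transcripts lack a poly(A) tail, had a median log2 fold change of -1.10 over 11 tested genes, the most negative of the 33 lists, and 10 of the 11 were negative. Hist1h4d was at 3.63 CPM in Pld6 KO replicate 1 and 2.62 CPM in Pld6 KO replicate 4, and at 0.084 to 1.39 CPM in the other 9 libraries. Where Pld6 was present the median was 0.97, of the opposite sign, and over all 11 libraries none of these genes had an unadjusted p under 0.05. Without Pld6 KO replicate 1 the median was -0.30.

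Of 30 cytosolic ribosomal protein genes, 25 had a positive value (median 0.17). Rplp2 and Rps27a were higher at an unadjusted p under 0.05 (3.94% of all genes tested were). The list's median was 0.43 where Pld6 was present, -0.03 where it was absent and 0.04 with the offset for GC content and length. Vwf, the von Willebrand factor of endothelium, was at 62.0 CPM in DKO replicate 1, 33.3 CPM in DKO replicate 3 and 11.5 to 22.7 CPM elsewhere. Cdh16, a cadherin of kidney and mesonephric epithelium, was at 6.08 CPM in DKO replicate 3 and 0.302 to 1.58 CPM elsewhere.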
